A study of Homo sapiens with 21 samples.

Results

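The genes described here encode the proteins of the cytosolic ribosome, followed across 21 mRNA libraries of MM.1S, a human multiple myeloma cell line. They were chosen by name and a minimum level, with earlier results of these data known. The names are symbols that begin with RPL or RPS and a digit, together with RPLP0, RPLP1, RPLP2 and RPSA. The level is a mean of at least 1 TPM over all libraries. TPM is a gene's share of the transcripts of a library, corrected for gene length and scaled to a fixed total. The rule found 82 of 17691 listed genes, 51 of the large subunit and 31 of the small subunit. Of the 98 symbols with a matching name, 15 were left out by name (S6 kinases, readthrough genes, RPS19BP1 and RPS27L). RPL3L, with a mean of 0.10 TPM, fell below the level, whereas the lowest gene kept, RPL22L1, had a mean of 22.6 TPM. All 82 genes had at least 1 TPM in every library, so none was lost to the filter on low values. Of these, 77 are the canonical genes and 5 are paralogues of canonical genes (RPL22L1, RPL26L1, RPL36AL, RPL39L and RPL7L1).

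Each of 7 groups had 3 libraries, which the submitters call biological replicates. MM.1S cells with no genetic change were collected untreated or after 24, 48 or 72 h in 1 µM pomalidomide, a drug that directs Ikaros and Aiolos to the ubiquitin ligase containing cereblon. Drug-free MM.1S cells were transduced with lentivirus that expressed a short hairpin RNA against ARID2, a subunit of the PBAF chromatin remodeller, or against Aiolos, the protein of IKZF3, both for 72 h. Drug-free cells labelled control knockdown are the group set against both. For this control the labels give neither the hairpin nor the time, and for no hairpin do they give its sequence or any selection of the cells. ARID2 mRNA was lower in the ARID2 knockdown (12.2 ± 0.191 TPM) than in the control knockdown (25.6 ± 0.322 TPM). IKZF3 mRNA went against its label, at 129.9 ± 10.4 TPM in the libraries labelled Aiolos knockdown and 81.3 ± 2.19 TPM in the control knockdown (SD, n = 3 each), so those libraries are called the Aiolos-labelled libraries throughout. The ARID2 knockdown also had more IKZF3 mRNA than this control (119.5 ± 1.93 TPM), and untreated cells had 96.4 ± 1.77 TPM. All 7 plasma cell markers were present (2689 to 4657 TPM summed, by group mean), whereas T cell, myeloid and epithelial markers summed to at most 6.29 TPM and erythroid markers to at most 27.9 TPM. Depth is unknown for TPM values, and no library had to be left out.

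The cytosolic ribosome joins a small subunit, which binds the mRNA and reads its codons, to a large subunit, which forms the peptide bond. Most of its proteins are present in equal amounts, and a protein made without its partners is quickly degraded. Their mRNAs are among the most abundant in a dividing cell, and nearly all begin with a C followed by an unbroken run of C and T, the 5′ terminal oligopyrimidine (TOP) motif through which LARP1 and mTORC1 control their translation. MYC is a known activator of their transcription, and plasma cells, which secrete large amounts of protein, depend on a high ribosome content. RPL5 and RPL11 also bind MDM2 together with 5S rRNA and so link ribosome assembly to p53.

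The sequence shared by these genes lies at the start of transcription. Of the 82 genes, 66 have an entry in the RefSeq promoter table (build GRCh38.p14), which gives 250 bases before and 50 after the annotated start. A C followed by at least 4 C or T, on the gene's own strand and within 5 bases of the start, was found in 52 of these 66 (78.8%) and in 21.05% of all 27305 promoters in the table. The windows below cover 40 bases before the start and 15 after it, with that run in capitals. RPL13A (chr19:49487568-49487622, plus strand), RPS27 (chr1:153990722-153990776, plus strand) and RPL3 (chr22:39319609-39319663, minus strand) are shown because they went against the fall of the family in the drug. RPL41 (chr12:56116593-56116647, plus strand) and RPS12 (chr6:132814529-132814583, plus strand) are shown as the most abundant members. RPL4 (chr15:66504841-66504895, minus strand) and RPS19 (chr19:41860215-41860269, plus strand) are shown for their opposite changes in the ARID2 knockdown. RPLP1 (chr15:69452778-69452832, plus strand) was the canonical gene that fell where nearly all others rose. RPL26 (chr17:8383179-8383233, minus strand) stands beside its paralogue RPL26L1 (chr5:172958689-172958743, plus strand), which has no such run within 5 bases of the start.
RPL13A: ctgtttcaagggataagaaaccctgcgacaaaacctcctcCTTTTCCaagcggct
RPS27: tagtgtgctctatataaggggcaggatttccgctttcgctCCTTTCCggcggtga
RPL3: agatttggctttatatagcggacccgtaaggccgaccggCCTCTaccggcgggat
RPL41: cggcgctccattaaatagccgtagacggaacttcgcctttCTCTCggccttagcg
RPS12: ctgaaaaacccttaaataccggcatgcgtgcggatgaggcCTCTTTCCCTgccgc
RPL4: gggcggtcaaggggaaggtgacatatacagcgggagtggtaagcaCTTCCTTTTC
RPS19: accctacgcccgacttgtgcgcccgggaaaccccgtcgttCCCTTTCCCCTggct
RPLP1: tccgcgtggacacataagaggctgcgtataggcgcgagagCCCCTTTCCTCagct
RPL26: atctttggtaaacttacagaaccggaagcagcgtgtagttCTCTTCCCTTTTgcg
RPL26L1: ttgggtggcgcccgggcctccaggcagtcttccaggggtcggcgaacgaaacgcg

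In 9 of the 10 windows the run in capitals begins at, beside or shortly after the annotated start. Only RPL26L1 has none within 5 bases of the start, though its window holds such runs further upstream. In RPL13A, RPS27, RPL41, RPS12, RPS19 and RPL26, C or T also directly precede the capitals. The unbroken stretch of C and T in those 6 windows thus begins before the annotated start. Other short motifs were searched on both strands of the 300 bases. The ETS core CTTCCGG was in 33.3% of the 66 promoters and 10.67% of all promoters, and TCTCGCG, a motif of ZBED1 and ZBTB33, in 24.2% and 3.53%. The YY1 core AAGATGG was in 13.6% and 6.06%, the GC box GGGCGG in 53.0% and 44.59%, and TTCCC, the core bound by Ikaros factors, in 77.3% and 64.64%. The E-box CACGTG was in 6.1% and 7.43%, and TATAAA in 9.1% and 11.95%. A match is a run of letters in this window and no measure of binding.

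The family's mRNAs took their smallest share of the transcriptome in the drug and their largest in the Aiolos-labelled libraries. In untreated cells they made up 9.04 ± 0.144% of the listed TPM, and this share was 8.36 ± 0.255% after 24 h in pomalidomide, 7.74 ± 0.0649% after 48 h and 7.64 ± 0.137% after 72 h (SD, n = 3 each). The ARID2 knockdown had 9.71 ± 0.169%, the Aiolos-labelled libraries 12.96 ± 0.374%, and the control knockdown 9.76 ± 0.101%. The libraries of the ARID2 knockdown overlapped those of the control knockdown, whereas every Aiolos-labelled library lay above every other library. In bulk RNA, less of these mRNAs in every cell and fewer cells with a high level cannot be told apart.

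**Figure D1:**
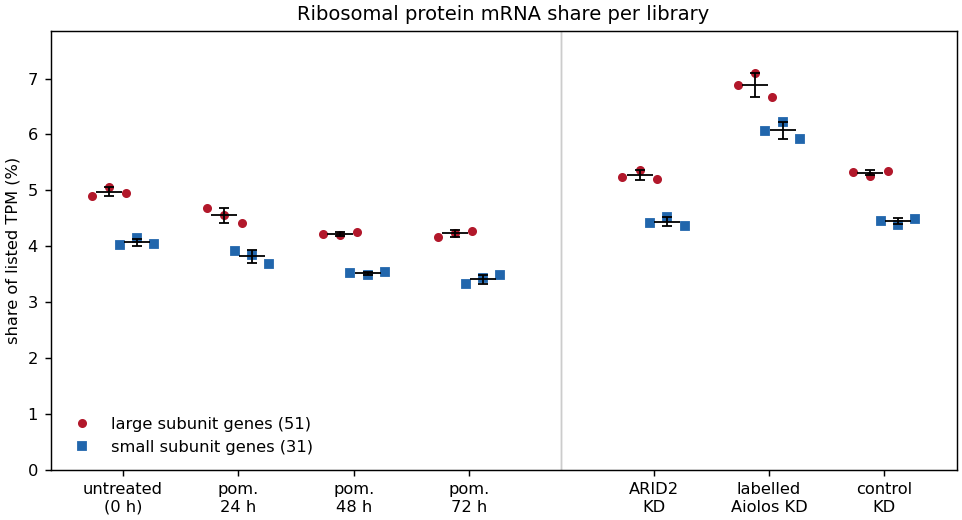
Share of the listed TPM (%, y axis) held by the 51 large subunit genes (circles) and the 31 small subunit genes (squares) in each of the 21 libraries (x axis, by group); bars are the mean and SD of 3 libraries. Both subunits step down over the first 48 h of pomalidomide, and both stand highest in the Aiolos-labelled libraries (means 6.89% and 6.07%, against 5.31% and 4.44% in the control knockdown).

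A few genes carried much of this mRNA. The highest level in untreated cells was that of RPL41, which encodes a very short basic peptide, at 6588.6 TPM, followed by RPS12 at 4529.5 TPM and RPS27, a zinc finger protein, at 3602 TPM (group means). After 72 h of pomalidomide the order had changed, with RPS27 at 3996 TPM above RPL41 at 3639 TPM and RPS12 at 3198 TPM; the 3 libraries of RPS27 ranged from 3794 to 4208 TPM and those of RPL41 from 3528 to 3791 TPM, without overlap. The median gene had 819 TPM in untreated cells, 782 at 24 h, 705 at 48 h and 698 at 72 h. Among the knockdowns the median was 862 TPM in the ARID2 knockdown, 1173 TPM in the Aiolos-labelled libraries and 921 TPM in the control knockdown. The number of genes with a mean of at least 1000 TPM was 35, 31, 24 and 24 over the drug series from untreated to 72 h, and 34, 48 and 37 in the ARID2, labelled Aiolos and control knockdowns. RPL22L1 was lowest in every group except at 72 h, where RPL39L, at 14.9 TPM, was lower.

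Most of the family was lower after 24 h of pomalidomide, by small amounts. At an adjusted p under 0.05 in limma, 59 of the 82 genes fell, 0 rose and 23 stayed short of it. Their median log2 change was -0.13, on the log2(TPM + 1) scale used for every fold change here. At an unadjusted p under 0.05 the counts were 63 lower and 0 higher, and quantile normalization of the libraries gave 31 lower and 6 higher. Over all 12559 genes tested, 66.1% passed, 35.1% higher and 31.0% lower, with a median of 0.03. The falls at 24 h were small, and the larger ones included RPL39L (-0.60), RPL22L1 (-0.55), RPS2 (-0.30) and RPL14 (-0.26). The stalk protein gene RPLP0, with 1604, 1569 and 1515 TPM at 24 h and 1522, 1608 and 1588 TPM in untreated cells, was among those that did not pass (adjusted p = 0.819).

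By 48 h the fall had deepened: 69 genes were lower than in untreated cells, 3 were higher and 10 did not pass (53 lower and 10 higher with quantile normalization). The family's median log2 change was -0.29. Of all genes tested, 78.7% passed at this time, 43.8% higher and 34.8% lower, with a median of 0.08. Against 24 h directly, 51 genes fell further and 3 rose by 48 h, with a median of -0.13, when 58.2% of all genes passed (32.1% higher and 26.1% lower). Leading the further fall were RPL39L (-1.70), RPL41 (-0.46), RPS2 (-0.35), RPL26L1 (-0.34) and RPL23A (-0.31).

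At 72 h, 64 genes were lower than in untreated cells, 4 were higher and 14 did not pass (53 lower and 10 higher with quantile normalization). The family's median log2 change was -0.24. Of all genes tested, 79.8% passed, 48.1% higher and 31.6% lower; their median was 0.15, and the family's median lay 0.39 below it. Other scalings of the libraries moved the median of all genes at 72 h by -0.14 (median-of-ratios) and -0.10 (quantile normalization); the family's median was -0.40 and -0.18 under them. Between 48 and 72 h the counts depended on the scaling: 21 genes rose and 12 fell with TPM as deposited, 3 and 37 with median-of-ratios scaling, 16 and 22 with quantile normalization, and 4 and 37 with the total taken without mitochondrial, immunoglobulin and ribosomal protein genes. The share of all genes that passed between these times was 48.0% (31.6% higher and 16.5% lower). Mitochondrial mRNA, which shares the same TPM total, was 16.7% of the listed TPM at 48 h and 13.7% at 72 h, and its part in these counts was not tested beyond that last scaling.

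**Figure D2:**
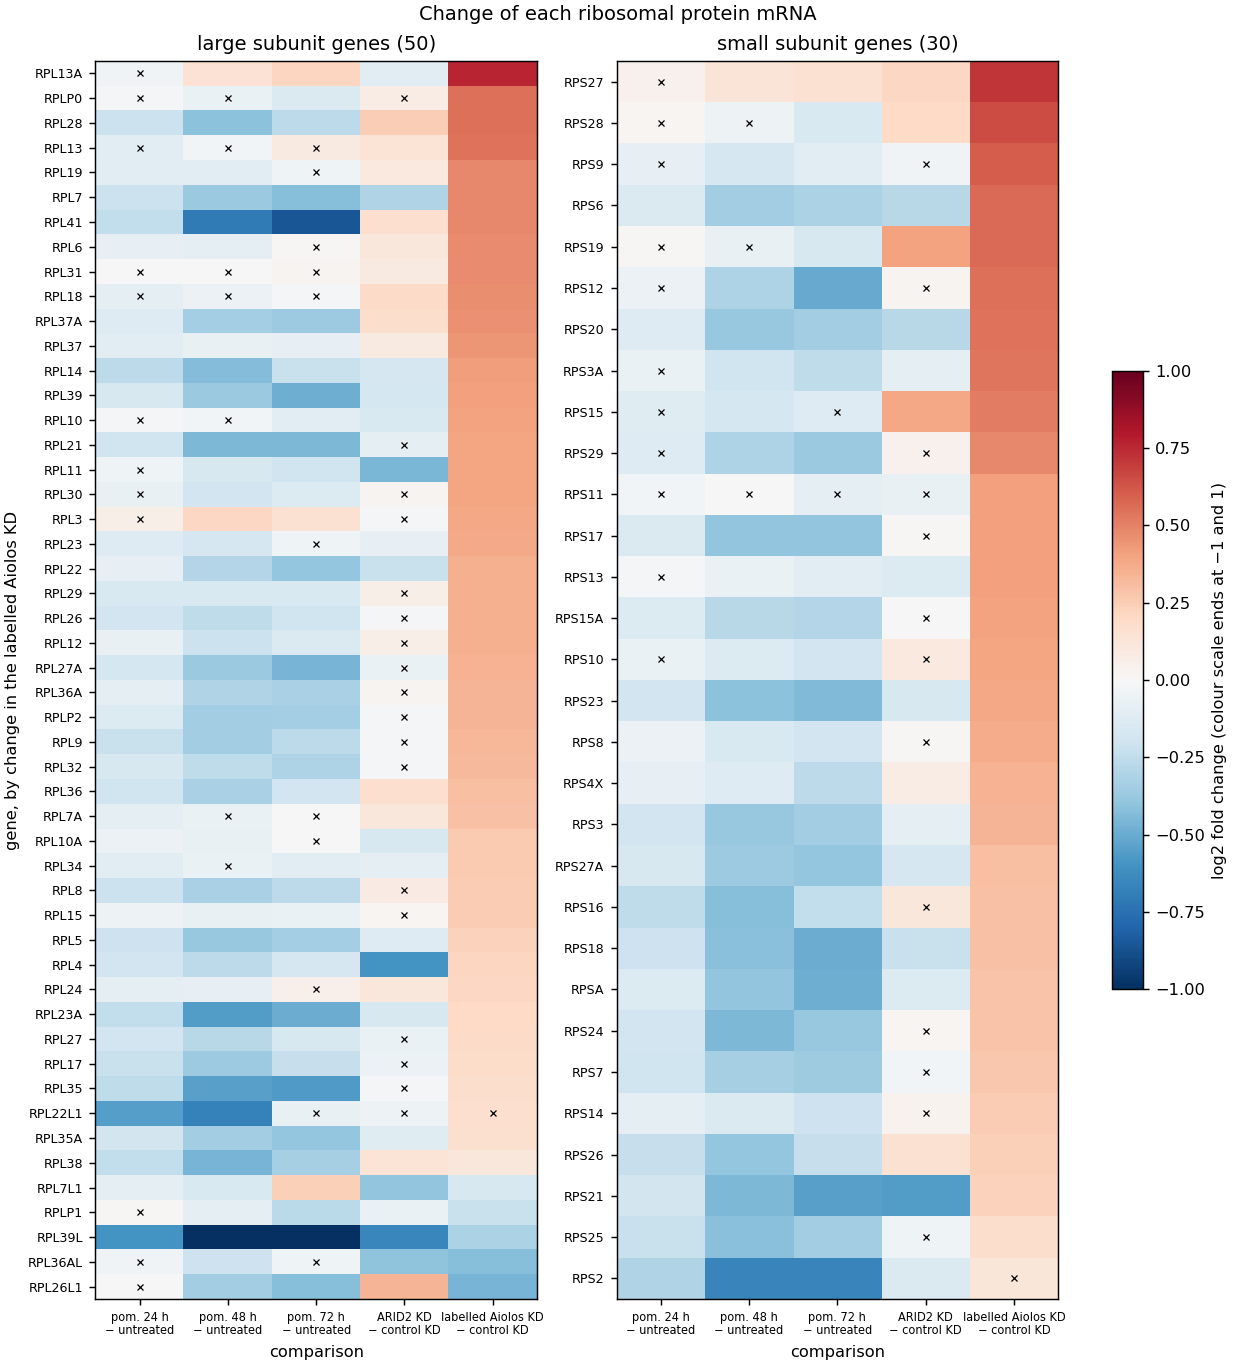
Log2 fold change of 80 of the 82 genes (rows, large subunit left, small subunit right, ordered by the change in the Aiolos-labelled libraries) in 5 comparisons (columns), with red higher and blue lower in the first-named group and crosses for changes that did not pass. The drug columns are mostly blue, the ARID2 column is mixed, and the labelled Aiolos column is red except for RPL26L1, RPL36AL, RPL39L, RPLP1 and RPL7L1; colours end at -1 and 1, which RPL39L exceeds at 48 and 72 h.

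RPL39L changed most in the drug. It encodes a paralogue of RPL39, a small protein at the tunnel through which the new chain leaves the large subunit, and is best known from the testis, where the mouse gene is needed for sperm formation. RPL39L had 109, 117 and 108 TPM in untreated cells, 74.9, 71.0 and 73.7 TPM at 24 h, 25.2, 18.5 and 22.2 TPM at 48 h, and 14.9, 14.6 and 15.2 TPM at 72 h. No library of one time overlapped those of another, and the level was lower at each later time. The log2 change at 72 h against untreated was -2.82 ± 0.08 (adjusted p = 2.71e-17), where the error of a log2 change is its SE, here and throughout. RPL39 itself had 832, 787 and 867 TPM at 72 h and 1165, 1198 and 1128 TPM in untreated cells, a change of -0.49 ± 0.04. Against untreated cells RPL39L was the only member past a 2-fold change at 48 or 72 h, and no member was past it at 24 h.

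RPL41 showed the next largest change. Its libraries had 6459, 6745 and 6562 TPM in untreated cells, 5806, 5444 and 5382 TPM at 24 h, 4001, 4036 and 4065 TPM at 48 h, and 3528, 3791 and 3599 TPM at 72 h. Each time stood apart from the others, and the change at 72 h against untreated was -0.86 ± 0.04 (adjusted p = 2.97e-14). RPS2, a small subunit protein at the entry of mRNA, had 664, 701 and 661 TPM at 72 h and 1048, 1078 and 1084 TPM in untreated cells (change -0.66 ± 0.06, adjusted p = 2.47e-09). Every RPS2 value at 72 h was below every untreated value. RPL35, at the mouth of the exit tunnel, changed by -0.57 ± 0.04 (adjusted p = 1.49e-11).

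The 4 genes that rose at 72 h did so by small amounts. RPL13A, a large subunit protein that can be released to silence mRNAs after interferon gamma, had 2463, 2534 and 2478 TPM at 72 h and 2129, 2168 and 2150.4 TPM in untreated cells (change 0.21 ± 0.04, adjusted p = 1.7e-05). RPL3, which reaches towards the peptidyl transferase centre, changed by 0.15 ± 0.03 (adjusted p = 0.00021), and RPS27 by 0.15 ± 0.03 (adjusted p = 0.000398). RPL7L1, a nucleolar relative of RPL7, had 98.3, 92.6 and 94.7 TPM at 72 h and 80.4, 80.5 and 80.1 TPM in untreated cells (change 0.24 ± 0.04, adjusted p = 2.66e-06). The rise of RPL13A did not pass under median-of-ratios scaling (0.06, adjusted p = 0.22), and RPL3 and RPS27 changed sign there (both -0.01). RPL13A, RPL3 and RPS27 were also the 3 genes higher at 48 h, by 0.14, 0.20 and 0.13, of which RPL13A (0.072) and RPS27 (0.057) did not pass with median-of-ratios scaling.

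The proteins of the stalk, which recruits the translation factors that split GTP, did not move as a block. RPLP0 anchors the stalk, and RPLP1 and RPLP2 form its flexible arms. At 72 h against untreated, the log2 change was -0.15 ± 0.03 for RPLP0, -0.27 ± 0.03 for RPLP1 and -0.34 ± 0.04 for RPLP2, and all 3 passed, RPLP0 not so with quantile normalization (-0.043). RPLP1 had 1887, 1879 and 1877 TPM at 72 h against 2246, 2299 and 2268 TPM in untreated cells. RPLP2 had 924, 925 and 915 TPM at 72 h against 1175, 1173 and 1150.4 TPM in untreated cells. At 48 h RPLP2 had already reached -0.35, while RPLP1 stood at -0.10 and RPLP0 at -0.06 (adjusted p = 0.0793).

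Among genes with roles outside the ribosome, the small subunit protein RPSA, also known as a laminin receptor precursor, fell further than RPS6, the target of the S6 kinases. RPSA had 960, 980 and 1001 TPM at 72 h against 1357, 1406 and 1372 TPM in untreated cells (change -0.49 ± 0.03). RPS6 had 818, 794 and 835 TPM at 72 h against 1031, 1034 and 985 TPM in untreated cells (change -0.32 ± 0.03). The MDM2-binding pair differed in size of change: RPL5 changed by -0.34 ± 0.03 and RPL11 by -0.20 ± 0.03. RPS19 and RPS14, whose loss underlies Diamond-Blackfan anaemia and the 5q- syndrome, changed by -0.16 ± 0.05 and -0.21 ± 0.03. RPL10, a protein added late in large subunit assembly, changed by -0.11 ± 0.03. RPS27A, made as a fusion with ubiquitin, changed by -0.39 ± 0.03 and RPS4X by -0.26 ± 0.02. All 9 passed at 72 h, but RPS19 (-0.089) and RPL10 (-0.023) did not with quantile normalization.

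Small subunit genes gave the lower medians in the later drug times. At 72 h, 28 of 31 small subunit genes fell and 1 rose (median -0.32), while of 51 large subunit genes 36 fell and 3 rose (median -0.19). At 48 h the medians were -0.33 for the small and -0.26 for the large subunit, and at 24 h -0.14 and -0.13. Under median-of-ratios scaling the 72 h medians were -0.47 and -0.35, and under quantile normalization -0.26 and -0.12. The difference between the subunits was not tested, because the genes of a subunit are not replicates. The ratio of summed TPM, large over small, was 1.22 ± 0.0068 in untreated cells, 1.19 ± 0.0062 at 24 h, 1.20 ± 0.0010 at 48 h and 1.24 ± 0.0130 at 72 h. Among the knockdowns it was 1.19 ± 0.0026 in the ARID2 knockdown, 1.13 ± 0.0080 in the Aiolos-labelled libraries and 1.20 ± 0.0050 in the control knockdown. RPL41 held 6588.6 of the 48165 TPM summed over large subunit genes in untreated cells. With subunit medians in place of sums, the log2 difference of the ratio changed sign at 48 h against untreated (0.063, against -0.02 from sums). It also changed sign in the Aiolos-labelled libraries against the control knockdown (0.070, against -0.08 from sums), where RPL41 itself rose by 0.48. The part of RPL41 in these differences was not tested.

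**Figure D3:**
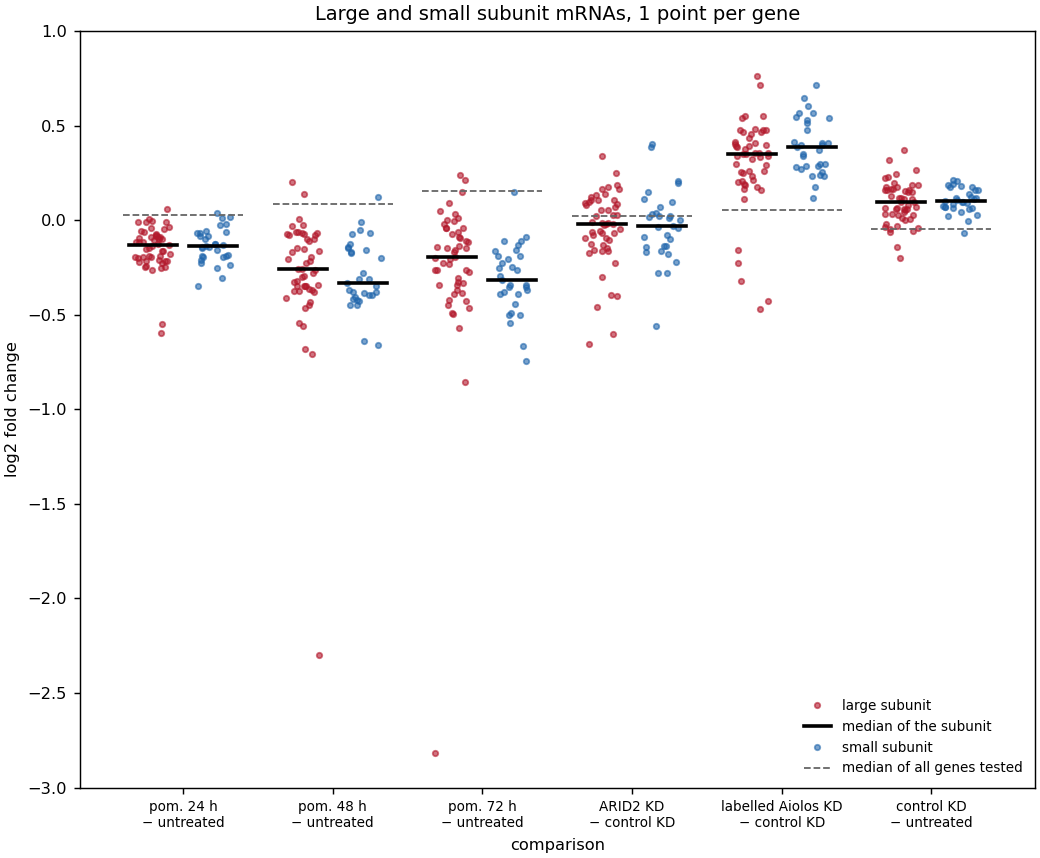
Log2 fold change (y axis) of each large (red, left of each pair) and small (blue) subunit gene in 6 comparisons (x axis), with heavy bars at the subunit medians and dashed lines at the median of all genes tested. Both subunits lie below the dashed line in the drug, astride it in the ARID2 knockdown and above it in the Aiolos-labelled libraries; the separate low points at 48 and 72 h are RPL39L (-2.30 and -2.82).

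Depletion of ARID2 left the family's total near that of its control and split its genes. In the ARID2 knockdown 21 genes were higher, 30 were lower and 31 did not pass against the control knockdown. The median log2 change was -0.02. Over all genes tested 62.2% passed, 33.1% higher and 29.2% lower, with a median of 0.02, so the counts of the family were close to the background. The sign of the family's median depended on the scaling: it was -0.05 with median-of-ratios, 0.04 with quantile normalization and 0.02 with the reduced total, and the counts were 13 higher and 34 lower, 34 and 18, and 32 and 22. Both subunits were split, with 15 higher and 18 lower among large subunit genes and 6 and 12 among small subunit genes.

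For some genes the change in the ARID2 knockdown was larger than the spread of the libraries. RPL4, which lines the exit tunnel, had 708, 727 and 716 TPM in the ARID2 knockdown and 1094, 1091 and 1080.2 TPM in the control knockdown, a change of -0.60 ± 0.02 (adjusted p = 2.85e-14). RPL11 had 1274, 1287 and 1267 TPM in the ARID2 knockdown and 1756, 1759 and 1741 TPM in the control knockdown, a change of -0.46 ± 0.03 (adjusted p = 5.45e-12). RPS21 had 1022, 1022 and 926 TPM in the ARID2 knockdown and 1497, 1396 and 1486 TPM in the control knockdown, a change of -0.56 ± 0.06 (adjusted p = 4.69e-08). The groups did not overlap for these genes. RPL39L, with 68.6, 80.7 and 72.2 TPM in the ARID2 knockdown and 112, 118 and 119 TPM in the control knockdown, had the largest fall, -0.65 ± 0.08 (adjusted p = 7.05e-07).

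The rises were led by RPS19, which had 1221, 1254 and 1171 TPM in the ARID2 knockdown and 940, 881 and 931 TPM in the control knockdown (change 0.41 ± 0.05, adjusted p = 1.19e-06). RPS15, a protein of the small subunit head beside the decoding site, had 1224, 1246 and 1216 TPM in the ARID2 knockdown and 957, 877 and 982 TPM in the control knockdown (change 0.39 ± 0.07, adjusted p = 5.56e-05). Neither gene had overlapping groups. They were followed by RPL26L1 (0.34 ± 0.05), RPL28 (0.25 ± 0.05), which has no counterpart in budding yeast, and RPS27 (0.21 ± 0.03). RPS27 did not pass under quantile normalization (0.10, adjusted p = 0.073). Of the other genes named for their roles, RPS6 (-0.28), RPL7 (-0.30), RPL22 (-0.23), RPL39 (-0.18), RPS27A (-0.17), RPL10 (-0.15), RPSA (-0.14), RPL5 (-0.13) and RPLP1 (-0.06) fell and RPS4X (0.07) rose. Several of these depended on the scaling: with quantile normalization RPL10 (0.015) and RPS27A (0.019) changed sign and RPL5 (-0.013) and RPL39 (-0.061) did not pass, RPLP1 (-0.022) did not pass with the reduced total, and RPS4X (0.040) did not pass with median-of-ratios scaling. RPLP0 (0.07), RPLP2 (-0.01), RPS14 (0.03), RPL3 (-0.02), RPL26 (-0.02) and RPL36A (0.03) did not pass, though RPLP2 (0.094) and RPS14 (0.17) passed as higher with quantile normalization.

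Among 6 comparisons examined, base composition moved most with the response to the ARID2 hairpin. Across the 81 genes with a length and GC content in GENCODE 29, Spearman's rho between transcript GC content and the log2 change was 0.38 in the ARID2 knockdown, against 0.13 in the Aiolos-labelled libraries and -0.05 in the control knockdown. At the 3 drug times, in order, it was 0.00, 0.10 and 0.06. The same values for transcript length lay between -0.14 and 0.12 in those 6 comparisons. All genes of a comparison share the same libraries, so these are descriptions, and whether base composition has a part in the ARID2 changes was not tested. No such value is given over all genes tested, so a trend of the whole transcriptome cannot be told from one of this family. Of the 28 members with small nucleolar RNA genes inside them, 4 rose and 13 fell in the ARID2 knockdown (median -0.08). Of the other 54 genes 17 rose and 17 fell (median 0.02), and of all genes tested 33.1% rose and 29.2% fell. These counts hold for TPM as deposited. Elsewhere the medians with and without such genes were -0.13 and -0.14 at 24 h, -0.24 and -0.30 at 48 h, and -0.21 and -0.25 at 72 h of drug. In the labelled libraries they were 0.38 and 0.34.

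**Figure D4:**
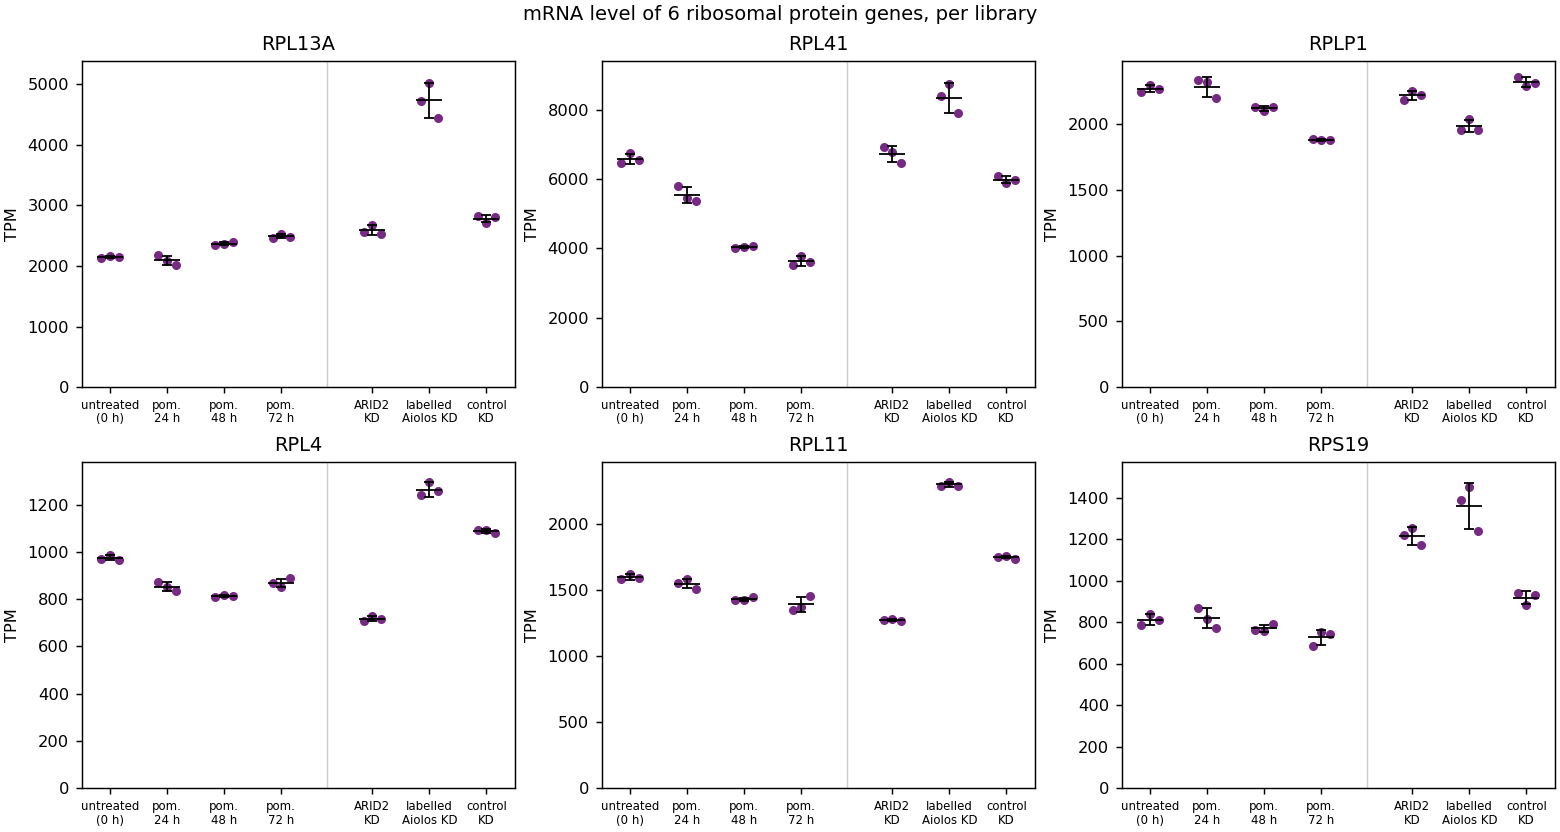
TPM (y axis, from 0) of 6 genes in every library (points) with the mean and SD of 3 libraries, by group (x axis). RPL13A stands highest in the Aiolos-labelled libraries, RPL41 declines over the drug series, RPLP1 is lower in the labelled libraries than in the control knockdown, and RPL4, RPL11 and RPS19 show the opposite changes of the ARID2 knockdown.

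The Aiolos-labelled libraries had more of nearly every ribosomal protein mRNA. Against the control knockdown 75 of the 82 genes rose, 5 fell, and RPL22L1 and RPS2 did not pass. The median log2 change was 0.35. Over all genes tested 67.9% passed, 37.2% higher and 30.7% lower, and the median was 0.05. The family's median was 0.29 with median-of-ratios scaling and with quantile normalization and 0.37 with the reduced total. Of the 77 canonical genes 75 rose, RPLP1 fell and RPS2 did not pass. The rise took in 45 of 51 large subunit genes (median 0.35) and 30 of 31 small subunit genes (median 0.39).

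The size of the rise varied among genes. RPL13A had 4726, 5027 and 4451 TPM in the Aiolos-labelled libraries and 2826, 2714 and 2805 TPM in the control knockdown, a change of 0.77 ± 0.04 (adjusted p = 2.07e-13). RPS27 had 6871, 6857 and 6822 TPM in the labelled libraries and 4161, 4186 and 4186 TPM in the control knockdown, a change of 0.71 ± 0.03 (adjusted p = 2.03e-13). These groups did not overlap, and the spread among the labelled libraries was wider for RPL13A than for RPS27. RPS28 (0.65 ± 0.06) and RPS9 (0.60 ± 0.05), a protein at the mRNA entry site, were also among the larger rises. RPS19 and RPS6 rose by 0.57 each, RPLP0 by 0.55, RPL7 by 0.48, RPL10 and RPL39 by 0.41, RPL11 by 0.40 and RPL3 by 0.39. Smaller rises were those of RPLP2 (0.34), RPS27A (0.30), RPSA (0.29), RPS14 (0.26) and RPL5 (0.23).

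RPLP1 parted from its stalk partners in these libraries. It had 1956, 2040.1 and 1960.4 TPM in the Aiolos-labelled libraries and 2360, 2292 and 2316 TPM in the control knockdown, a change of -0.23 ± 0.03 (adjusted p = 9.48e-08). Its partner RPLP2 had 1438, 1476 and 1335 TPM in the labelled libraries and 1117, 1105 and 1130 TPM in the control knockdown. RPLP1 was thus lower and RPLP2 higher in all 3 labelled libraries than in any control knockdown library. IKZF3 mRNA was higher in these libraries and protein was not measured, so the changes are those of the libraries as labelled.

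Set directly against the ARID2 knockdown, the Aiolos-labelled libraries had 77 genes higher and 2 lower (RPL26L1, -0.81, and RPLP1, -0.16), with a median of 0.36. Of all genes tested 65.9% passed this comparison, 35.7% higher and 30.2% lower. RPL13A (0.87 ± 0.04), RPL11 (0.85 ± 0.03), RPS6 (0.85 ± 0.03), RPS20 (0.82 ± 0.04) and RPL4 (0.82 ± 0.02) had the largest differences. RPL11, RPS6 and RPL4 were among the genes that fell in the ARID2 knockdown and rose in the labelled libraries, each against the same control knockdown.

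The control knockdown itself differed from untreated cells. Of the 82 genes 44 were higher in the control knockdown, 2 were lower (RPL26L1, -0.20, and RPL41, -0.14) and 36 did not pass. Quantile normalization gave 43 higher and 7 lower, median-of-ratios scaling 52 and 1, and the reduced total 57 and 2; RPL26L1 did not pass under the first (-0.11) and RPL41 not under the second (-0.10). The median log2 change was 0.10. Over all genes tested 45.7% passed, 17.3% higher and 28.4% lower, and the median was -0.04. RPL13A had 2826, 2714 and 2805 TPM in the control knockdown and 2129, 2168 and 2150.4 TPM in untreated cells (change 0.37 ± 0.04, adjusted p = 6.96e-08). RPL12, at the base of the stalk, had 925, 943 and 930.0 TPM in the control knockdown and 742, 769 and 734 TPM in untreated cells (change 0.32 ± 0.03, adjusted p = 8.4e-09). RPL10A (0.27), RPL3 (0.24) and RPL23 (0.23), another protein that binds MDM2, followed. Transduction, the hairpin and time in culture cannot be told apart in this comparison.

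The drug at 72 h and the ARID2 hairpin, each against its own control, differed in their effect on most of the family. The interaction contrast, the drug effect minus the ARID2 effect, was lower for 58 genes and higher for 7, and 17 did not pass. The median difference was -0.22. Of all genes tested 69.5% passed, 40.4% higher and 29.1% lower, with a median of 0.11; the other scalings moved that median by up to -0.11, and the family's median was -0.34 with median-of-ratios and -0.25 with quantile normalization. Among the most negative differences were those of RPL39L (-2.17 ± 0.11), RPL41 (-1.02 ± 0.05), RPL26L1 (-0.77 ± 0.07) and RPS19 (-0.57 ± 0.07). The most positive were those of RPL7L1 (0.64 ± 0.05), RPL4 (0.44 ± 0.03), RPL36AL (0.36 ± 0.05), RPL13A (0.32 ± 0.05) and RPL11 (0.26 ± 0.04). RPS6 (-0.04, adjusted p = 0.375), RPL10 (0.04, adjusted p = 0.521) and RPS27 (-0.06, adjusted p = 0.263) did not pass; with median-of-ratios scaling RPS6 (-0.16) and RPS27 (-0.19) did.

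The 64 genes lower at 72 h of drug and the 75 genes higher in the Aiolos-labelled libraries shared 60, which is 93.8% of the first list and 80.0% of the second. Since 75 of 82 genes were on the second list, 60 of 64 is close to the share of all members on it. Of the 30 genes lower in the ARID2 knockdown, 25 (83.3%) were also lower at 72 h of drug, as were 64 of all 82 (78.0%); these 25 are 39.1% of the drug's list. Across the 82 genes, Spearman's rho of the log2 changes was 0.31 between the drug at 72 h and the ARID2 knockdown, and 0.26 between the drug and the labelled libraries. These pairs of comparisons have no library in common, and the values describe genes, which are not independent replicates.

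The paralogues departed from their parent genes in most groups. As a percentage of RPL39, RPL39L mRNA was 9.57 ± 0.17% in untreated cells, 7.05 ± 0.383% at 24 h, 2.43 ± 0.337% at 48 h and 1.80 ± 0.0498% at 72 h. Among the knockdowns it was 6.84 ± 0.435% in the ARID2 knockdown, 5.78 ± 0.757% in the Aiolos-labelled libraries and 9.56 ± 0.334% in the control knockdown. The RPL39L library values in the labelled libraries were 97.6, 98.4 and 83.8 TPM (change -0.32 ± 0.08 against the control knockdown, adjusted p = 0.0016), while RPL39 rose by 0.41. These percentages are values per library, and with 3 libraries in each group an exact two-sided permutation test cannot give a p below 0.1, so none was run.

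RPL26L1 and RPL26, a protein that also binds p53 mRNA, went opposite ways in the labelled libraries. RPL26L1 had 58.5, 62.7 and 58.2 TPM in the Aiolos-labelled libraries and 84.9, 79.8 and 84.5 TPM in the control knockdown (change -0.47 ± 0.05, adjusted p = 1.06e-07). RPL26 had 1693, 1757 and 1730.3 TPM in the labelled libraries and 1359, 1333 and 1359.9 TPM in the control knockdown (change 0.35 ± 0.03, adjusted p = 1.56e-10). The groups of neither gene overlapped. In the ARID2 knockdown RPL26L1 had 99.6, 113 and 104.5 TPM (change 0.34 ± 0.05) and RPL26 did not pass. RPL26L1 as a percentage of RPL26 was therefore 7.93 ± 0.379% in the ARID2 knockdown, 3.46 ± 0.104% in the labelled libraries and 6.15 ± 0.142% in the control knockdown. In the drug series it was 7.69 ± 0.355% untreated, 8.73 ± 0.665% at 24 h, 7.20 ± 0.367% at 48 h and 6.55 ± 0.238% at 72 h.

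RPL36AL is the most abundant of the 5 paralogues, close to RPL36A, whose protein contacts the end of the departing tRNA. RPL36AL had 318, 322 and 319.6 TPM in the ARID2 knockdown, 309.5, 317 and 315 TPM in the Aiolos-labelled libraries and 409, 434 and 424 TPM in the control knockdown. Both hairpin groups were below the control without overlap, with changes of -0.40 ± 0.04 and -0.43 ± 0.04 (adjusted p = 7.96e-09 and 1.98e-09). RPL36A did not pass in the ARID2 knockdown and rose by 0.34 ± 0.03 in the labelled libraries. RPL36AL as a percentage of RPL36A was 59.9 ± 1.56% in the ARID2 knockdown, 47.2 ± 0.669% in the labelled libraries and 80.6 ± 3.19% in the control knockdown. In the drug series it was 87.1 ± 5.14% untreated, 91.0 ± 0.332% at 24 h, 92.7 ± 0.573% at 48 h and 106.0 ± 2.41% at 72 h.

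RPL22L1 fell early in the drug and was higher again at 72 h than at 48 h. In mice its parent protein, Rpl22, represses the paralogue's mRNA. RPL22L1 had 24.2, 25.2 and 26.6 TPM in untreated cells, 17.7, 15.1 and 18.4 TPM at 24 h, 16.2, 14.3 and 15.8 TPM at 48 h, and 25.1, 22.0 and 25.2 TPM at 72 h. The 24 and 48 h libraries lay below those of untreated cells and of 72 h, and the untreated libraries overlapped those of 72 h. The change of RPL22L1 was -0.68 ± 0.07 at 48 h against untreated (adjusted p = 4.26e-08), 0.61 ± 0.07 at 72 h against 48 h (adjusted p = 1.37e-06) and -0.07 ± 0.07 at 72 h against untreated (adjusted p = 0.375), where median-of-ratios scaling gave -0.22 and passed. RPL22 changed by -0.08 at 24 h, -0.30 at 48 h and -0.38 at 72 h, all past the threshold, though at 24 h not with quantile normalization (-0.010). In the labelled libraries RPL22L1 changed by 0.17 ± 0.07, which did not pass (adjusted p = 0.0503), while RPL22 rose by 0.36 ± 0.03.

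RPL7L1 as a percentage of RPL7 was 7.29 ± 0.207% in untreated cells, 7.92 ± 0.169% at 24 h, 8.50 ± 0.288% at 48 h and 11.6 ± 0.584% at 72 h. It was 6.28 ± 0.133% in the ARID2 knockdown, 4.32 ± 0.134% in the Aiolos-labelled libraries and 6.73 ± 0.104% in the control knockdown. RPL7L1 itself had 57.4, 58.7 and 59.4 TPM in the ARID2 knockdown, 68.6, 66.8 and 72.3 TPM in the labelled libraries and 78.3, 77.5 and 75.9 TPM in the control knockdown. Both hairpin groups were below the control (changes -0.40 ± 0.04 and -0.16 ± 0.04), and both changes passed.

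RPS27L, a p53 target left out by the naming rule, differed from RPS27 too. RPS27L had 50.3, 52.2 and 51.4 TPM in the ARID2 knockdown, 40.6, 39.5 and 44.4 TPM in the Aiolos-labelled libraries and 27.3, 26.5 and 26.1 TPM in the control knockdown (changes 0.92 ± 0.06 and 0.62 ± 0.06, adjusted p = 2.95e-11 and 7.64e-09). It amounted to 1.06 ± 0.0419% of RPS27 in the ARID2 knockdown, 0.606 ± 0.0399% in the labelled libraries and 0.637 ± 0.0164% in the control knockdown. Reads of close copies can be divided differently by different counting methods. Annotation names 1144 pseudogenes for 77 of the 82 members, so the levels of single genes carry that uncertainty.

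**Figure D5:**
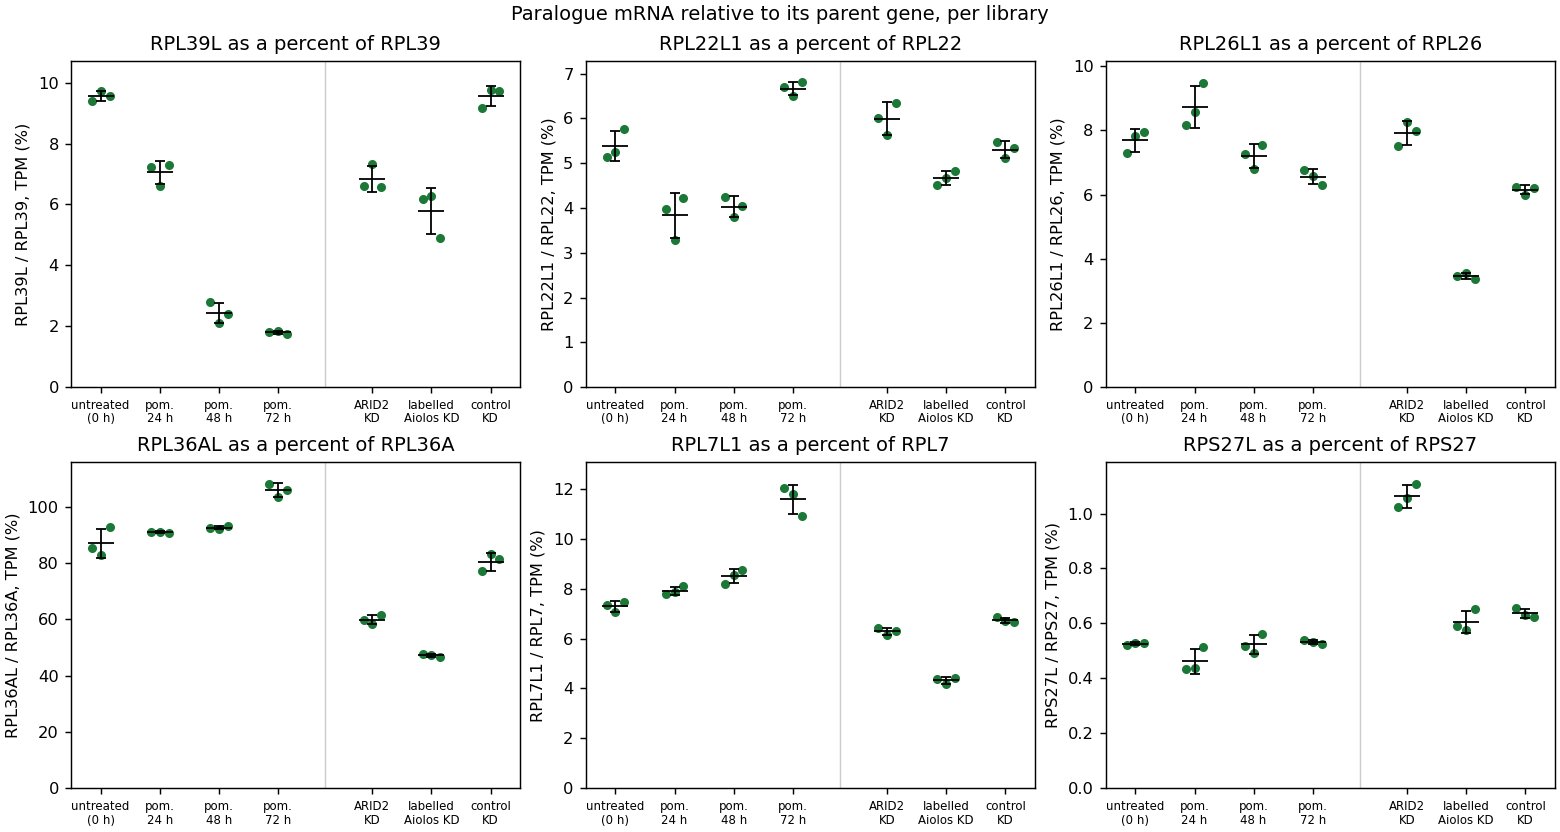
Paralogue mRNA as a percentage of its parent's TPM (y axis, from 0) in every library (points), with the mean and SD of 3 libraries, by group (x axis). RPL39L runs from 9.57% of RPL39 in untreated cells to 1.80% at 72 h of drug, and RPL26L1 and RPL36AL stand lowest in the Aiolos-labelled libraries (3.46% of RPL26 and 47.2% of RPL36A).

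Genes of ribosomal proteins that the symbols do not show behaved in part like the family. FAU, which encodes a small subunit protein fused to a ubiquitin-like domain, had 605, 618 and 630.1 TPM at 72 h of drug against 806, 812 and 779 TPM in untreated cells (change -0.37 ± 0.04, adjusted p = 1.12e-07). In the Aiolos-labelled libraries FAU had 817, 876 and 755 TPM against 857, 852 and 852 TPM in the control knockdown and did not pass (adjusted p = 0.169). RACK1, a small subunit scaffold protein, changed by 0.05 in the labelled libraries (adjusted p = 0.201) and fell by 0.08 at 72 h.

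The ribosome of mitochondria is built from other genes, and of 75 mitochondrial ribosomal protein genes 58 fell and 5 rose at 72 h of drug (median -0.33), led by MRPL11 (-1.33), MRPL37 (-1.30) and MRPL1 (-1.19). Over all genes tested 31.6% fell and 48.1% rose at 72 h (median 0.15). In the Aiolos-labelled libraries only 5 rose and 48 fell (median -0.26), with MRPL14 at 1.11, MRPL1 at -0.92 and MRPL55 at -0.76, while 37.2% of all genes rose and 30.7% fell (median 0.05). The cytosolic and mitochondrial genes thus had medians of the same sign in the drug and of opposite sign in the labelled libraries. In the ARID2 knockdown 20 mitochondrial genes rose and 22 fell (median 0.01), counts near those of all genes (33.1% rose and 29.2% fell, median 0.02). The lists of other translation genes were counted on TPM as deposited only.

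Of 35 initiation factors, 17 fell and 10 rose at 72 h (median -0.07), when 31.6% of all genes fell and 48.1% rose (median 0.15). In the ARID2 knockdown 16 fell and 12 rose (median -0.05), against 29.2% and 33.1% of all genes (median 0.02). In the labelled libraries 18 fell and 11 rose (median -0.18), against 30.7% and 37.2% of all genes (median 0.05). EIF2S2, a subunit of the factor that delivers the initiator tRNA, had a mean of 187 TPM in the ARID2 knockdown, 184 TPM in the labelled libraries and 341 TPM in the control knockdown (changes -0.86 ± 0.04 and -0.89 ± 0.04). Of 10 genes listed as elongation factors, 8 fell and 1 rose at 72 h (median -0.37). The falls were led by EEF1E1 (-1.04 ± 0.08), an elongation factor by symbol only. In the labelled libraries 6 of the 10 rose and 4 fell (median 0.30), and EEF1D rose by 0.58 ± 0.04. The shares and medians of all genes given for the initiation factors also stand beside this list and the next. Of 13 other mRNAs reported to carry a TOP motif, 8 fell and 2 rose at 72 h (median -0.16), led by VIM (-1.83 ± 0.08), NPM1 (-0.74 ± 0.04) and HNRNPA1 (-0.69 ± 0.03). In the labelled libraries 6 of these rose and 4 fell (median 0.10): TPT1 rose by 0.53 ± 0.03, while VIM (-1.55 ± 0.08) and TMSB10 (-0.49 ± 0.05) fell.

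Of 18 chaperones and importins of ribosomal proteins, 15 fell and 3 did not pass at 48 h of drug (median -0.34), among them PDCD2L, a partner of RPS2 (-0.95 ± 0.06), and KPNB1 (-0.93 ± 0.03), when 34.8% of all genes fell and 43.8% rose (median 0.08). From 48 to 72 h 16 of them were higher, against 31.6% of all genes, and at 72 h against untreated 9 fell and 3 rose (median -0.09), against 31.6% and 48.1% of all genes. Among 32 regulators of ribosomal protein transcription and translation, 17 rose and 9 fell at 72 h (median 0.14), which is near the 48.1% and 31.6% of all genes (median 0.15). Members of that list with large changes were DEPTOR, an mTOR inhibitor (1.09 ± 0.03), DDIT4 (1.00 ± 0.06) and TSC2 (0.81 ± 0.06). EIF4EBP1, the repressor of cap-dependent initiation, changed by -1.09 in the ARID2 knockdown and by -1.52 in the labelled libraries, and both changes passed. MYC had means of 479 TPM in untreated cells, 269.8 at 24 h, 286 at 48 h and 305 at 72 h. Among the knockdowns MYC had 201 TPM in the ARID2 knockdown, 328 TPM in the labelled libraries and 371 TPM in the control knockdown (changes -0.88 ± 0.03 and -0.18 ± 0.03). MYC was thus lower both where the family fell and where it rose, and its part in either change was not tested.

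Medians were also taken by promoter feature, as a description. Genes with the pyrimidine run at the start had a median log2 change of -0.24 at 72 h of drug, -0.02 in the ARID2 knockdown and 0.35 in the Aiolos-labelled libraries, and those without it -0.19, 0.03 and 0.32. With and without the TTCCC core the medians were -0.23 and -0.21 in the drug and 0.35 and 0.35 in the labelled libraries. With and without the TCTCGCG motif they were -0.16 and -0.25 in the drug. The 4 genes with CACGTG, RPL13A among them, had a median of 0.09 at 72 h and 0.57 in the labelled libraries, a set too small to compare.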

How the data were processed

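mRNA of MM.1S cells was sequenced in 21 libraries (TruSeq RNA v2 kit, NovaSeq), per the labels' protocols. The authors deposited 1 table of TPM values for 17691 symbols; the submitters' processing notes name hg38, while the aligner, quantifier and annotation were not given in the sources used here. TPM scales each gene by length and each library to a fixed total, so a gene's value depends on all others, and depth and counting error are unknown. Whether counting used the strand is not given.

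Values were analysed as log2(TPM + 1). A gene needed 1 TPM or more in 3 or more libraries. The 12559 such genes, all 82 members included, entered 1 limma fit (3.58.1, R 4.3.3; 7 group means, 14 residual and 5.28 prior degrees of freedom, trend in mean expression). Tests were two-sided, with Benjamini-Hochberg adjustment over all genes of a contrast and a threshold of 0.05. The p-values measure the spread between libraries, and the sources do not say whether these came from separate cultures. The fit recovered changes made in simulated data, whose settings are not given here, so no result rests on that check. No list was tested as a set; counts and medians stand beside those of all genes.

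Members, gene lists and motifs were chosen with earlier results of these data known. The text names, for each contrast, the 5 passing members that rose most and the 5 that fell most, a constant list of members with known roles, the paralogues with their parents, and up to 3 genes per other translation list. FAU and RACK1 were listed apart. Some genes that this rule names are not reported here; all members enter every count, sum and median. Genes were matched to GENCODE 29, and promoters to RefSeq. Same-numbered libraries of different groups did not deviate together (correlations from -0.119 to 0.076 over 9 contrasts), so the numbers were not used as pairs. Alternatives were other scalings, pseudocounts (0.1 and 5), filters (5 TPM, or none), the block, a fit of the compared groups alone, sums without paralogues or as medians, and leaving out each library.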

Additional observations from a re-analysis of the deposited data

How the results depend on the processing

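Scaling moved the counts most. With quantile normalization, pomalidomide at 24 h gave 6 genes higher and 31 lower, 48 h and 72 h each 10 higher, 48 h against 24 h 6 higher, and 72 h against 48 h 22 lower; the ARID2 knockdown gave 34 higher and 18 lower, and the control knockdown against untreated 7 lower. With median-of-ratios scaling 48 h and 72 h each gave 1 higher, 72 h against 48 h 3 higher and 37 lower, the ARID2 knockdown 13 higher, and the control knockdown 1 lower. With the total taken without mitochondrial, immunoglobulin and member genes, 24 h gave 1 higher, 72 h against 48 h 4 higher and 37 lower, and the ARID2 knockdown 32 higher. Without the paralogues 1 gene was lower in each comparison of the libraries labelled Aiolos knockdown and in the control knockdown.

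The log2 change of the summed TPM was -0.12 at 24 h, -0.25 at 48 h, -0.26 at 72 h, -0.01 in the ARID2 knockdown, 0.40 in the labelled libraries, 0.10 in the control knockdown and -0.25 for the drug minus ARID2 effect. A median in place of the sum gave -0.076, -0.23, -0.23, -0.077, 0.36, 0.15 and -0.15. With the reduced total it was -0.33 at 72 h, -0.092 at 72 h against 48 h, 0.028 in the ARID2 knockdown, 0.14 in the control knockdown and -0.36 for the drug minus ARID2 effect. The ratio of large to small subunit depended on the measure: from medians it was -0.016 (log2) at 24 h, 0.063 at 48 h, 0.079 at 72 h, 0.078 at 48 h against 24 h, 0.017 at 72 h against 48 h, 0.070 and 0.078 in the labelled libraries (against control and ARID2 knockdown), 0.017 in the control knockdown and 0.087 for the drug minus ARID2 effect. From sums, 48 h (-0.02), the labelled libraries (-0.08 and -0.07) and the control knockdown (-0.03) had the opposite sign. The cause was not tested.

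With 1 library left out, the 24 h count of higher genes ranged from 0 to 1 and the count lower at 72 h against 48 h from 6 to 11; it was 7 without 48 h replicate 1, 6 without 48 h replicate 3 and 7 without 72 h replicate 1. The other counts and sums stayed within 1.5 times or 1 SD of the reported value in every such fit. With the replicate number as a block all 20 counts kept within 1.5 times (56 lower at 24 h, 64 at 72 h, 30 in the ARID2 knockdown and 76 higher in the labelled libraries); of 280 values of named members, 277 kept their call, RPL22 lost it at 24 h and between 48 and 72 h, and RPL22L1 gained it in the labelled libraries (adjusted p = 0.0178).

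Of named members, quantile normalization changed the sign of RPLP0 (0.070), RPSA (0.0026) and RPS27 (-0.19) at 24 h, RPS14 (0.016) and RPS4X (0.011) at 48 h, RPLP2 (0.094), RPL10 (0.015) and RPS27A (0.019) in the ARID2 knockdown, RPS19 (-0.034) in the labelled libraries against the ARID2 knockdown, and RPLP1 (-0.14), RPS27 (-0.16) and RPS4X (-0.011) in the control knockdown. Median-of-ratios scaling did so for RPL3 (-0.0055) and RPS27 (-0.0087) at 72 h. Depth is unknown and sets no limit that can be given here.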

Other observations

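Between 48 and 72 h of pomalidomide the parts of the translation machinery moved by different amounts. Of 18 chaperones and importins of ribosomal proteins, 16 were higher at 72 h than at 48 h (median log2 change 0.31), as were 25 of 35 initiation factors (median 0.23), 28 of 75 mitochondrial ribosomal protein genes (median 0.09) and 21 of 82 cytosolic ribosomal protein genes (median 0.01), against 31.6% of all genes tested (median 0.06). RPL22L1 (0.61 ± 0.07, adjusted p = 1.37e-06 in limma) and RPL7L1 (0.39 ± 0.04, adjusted p = 3.01e-08) rose most among the cytosolic genes, in all 3 libraries at 72 h against all 3 at 48 h. The cytosolic count holds for TPM as deposited; scaling by median-of-ratios left 3 such genes past the threshold upwards and put 37 past it downwards, and shifted the median of all genes by -0.08. The other lists were counted for TPM as deposited only.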
